A study of Mus musculus with 48 samples.

Results

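Infarcted mouse hearts operated on postnatal day 10 (P10) were compared with infarcted hearts operated on postnatal day 1 (P1), both 3 days after surgery, by the H3K27ac mark of their sorted mononuclear phagocytic cells. The comparison used the 9 libraries titled P1 or P10, MI and 3D, of 42 libraries with files in the series. P1 had 3 libraries, 1 for each zone of the heart: the infarct itself (IZ), the border around it (BZ) and remote muscle (RZ). P10 had 6 libraries, 2 for each zone. All mice were C57BL/6, and myocardial infarction (MI) was made in both age groups by tying off the left anterior descending coronary artery. Cells positive for CD45 and F4/80 were sorted from each zone. Per the methods, pups of both sexes were used and the sex of each was not determined, and the hearts differed in age at collection as well as at surgery. Each library holds 1 zone of several pooled hearts. Libraries with the same age, surgery, day and replicate number were treated as 1 pool, since hearts were divided into the 3 zones before each zone was pooled. The sources used here do not tie a replicate number to 1 set of hearts. On this reading P1 was represented by 1 pool (replicate 1) and P10 by 2 pools (replicates 2 and 3). The p-values therefore measure a spread between libraries and pools in which P1 at day 3 has no second pool.

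H3K27ac is an acetyl mark on histone H3 that sits on active promoters and enhancers, and CoBATCH reads it with a transposase tethered to an antibody, which cuts and tags the DNA around marked nucleosomes of single cells. Macrophages and monocytes enter an injured heart within days, clear dead cardiomyocytes and release signals for inflammation, vessel growth and scar formation. The mouse heart regenerates after an infarct on the first day of life and has lost this ability by P10, and the comparison of the ages asks which regulatory regions of these cells differ between the regenerative and the nonregenerative setting. Reads carry no cell barcode in the files, and each library was treated as a bulk sample. A higher share of a cell type that carries a mark and more of the mark in each cell cannot be told apart here, and barcodes shared between libraries could not be counted.

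The P1 libraries held 692549 (IZ), 485307 (BZ) and 369851 (RZ) unique read pairs, and the P10 libraries 137158 to 753508 with a median of 414243. Of these pairs, 42.8% to 45.9% in P1 and 41.4% to 54.5% in P10 lay in the 27160 H3K27ac regions called over all libraries. The defining markers of the sorted cells carried the mark at both ages. Cx3cr1, the fractalkine receptor of monocytes and macrophages, had 442, 450 and 412 CPM in the P1 IZ, BZ and RZ and 470 to 561 CPM in P10, where CPM is the usual depth-scaled count, here of read pairs over the TMM-scaled total of the tested gene windows in a library. Adgre1, which encodes F4/80, had 156, 127 and 167 CPM in P1 and 146 to 190 CPM in P10. Of the 15 markers of cells without CD45, only Pecam1, which leukocytes also carry, had enough pairs in regions to be tested.

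The libraries of the 2 ages differed in technical ways, and in their share of pairs on X, that the design cannot separate from age. The read names of the P1 pool came from 4 flow cells, those of P10 replicate 2 from 5 and those of P10 replicate 3 from 2, and the P1 pool shared 0 of them with either P10 pool. The median span of a read pair was 194 to 198 bp in P1 and 238 to 257 bp in P10. The mean GC content under the pairs in regions was 51.2% to 51.4% in P1 and 50.2% to 51.1% in P10. The share of pairs on X was 1.77% to 1.82% in P1 and 1.88% to 2.85% in P10. None of these 3 ranges overlapped between the ages. The share on Y was 0.0146% to 0.0175% in P1, 0.0035% to 0.00522% in P10 replicate 2 and 0.0121% to 0.0365% in P10 replicate 3, and the part of sex in the results was not tested. In P10 replicate 2, 15.6% to 19.1% of lines were repeats and were dropped. There 12.0% to 15.6% of read names held a single line, so their span and place come from 1 read. Both shares were 0 in P1 and in P10 replicate 3. At day 3, age and flow cell cannot be told apart.

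Gene activity was the number of pairs in H3K27ac regions in a gene's window, made of the gene itself with 50 kb added before its start and 30 kb after its end. Of 10159 gene windows tested, 34 (0.335%) differed between P10 and P1 at an adjusted p under 0.05 (limma voom, Benjamini-Hochberg over all windows), 13 higher and 21 lower in P10. At an unadjusted p under 0.05 there were 1198 windows (11.8%), 540 higher and 658 lower. Neighbouring windows overlap and share pairs, and the 34 windows made up 16 separate stretches of the genome, 11 higher and 5 lower in P10. The higher windows were 1.42-fold to 2.51-fold higher in P10, and the lower ones were 1.52-fold to 2.57-fold higher in P1. All 34 had the same sign in the 3 zones, and 0 lay on X or Y. The P10 and P1 libraries did not overlap in 28 of the 34, against 853 of all 10159 windows (8.4%). Signs in the zones and overlap come from the same values that picked these windows, so they add no support of their own. The adjusted p-values, 0.027 to 0.0495, lay close to the threshold. No window passed when any 1 of the 3 P1 libraries was taken out (814 to 1133 at an unadjusted p under 0.05), or when the 3 zones of each pool were added up so that 1 P1 pool met 2 P10 pools (895 at an unadjusted p under 0.05), and all 34 kept their sign in the pool sums.

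The window with the smallest p among those higher in P10 was that of Lcp1, which encodes L-plastin, the actin-bundling protein of leukocytes. Its window (chr14:75081101-75260842, mm10) had 264, 229 and 200 CPM in the P1 IZ, BZ and RZ, and 351, 390 and 417 CPM as the lowest, median and highest of the 6 P10 libraries. Every P10 library lay above every P1 library, and the log2 difference of P10 minus P1 was 0.73 (SE 0.15, adjusted p = 0.027). Rcsd1 encodes CapZIP, a partner of the actin-capping protein CapZ. Its window (chr1:165616516-165759757) had 372, 331 and 380 CPM in P1 and 473 to 604 CPM with a median of 525 in P10, again without overlap, for a log2 difference of 0.52 (SE 0.13, adjusted p = 0.0495).

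Inpp5d, also higher in P10, encodes SHIP1, the inositol phosphatase that limits PI3K signalling in blood cells. Its window (chr1:87570312-87750507) had 313, 224 and 262 CPM in P1 and 364 to 438 CPM with a median of 403 in P10, a log2 difference of 0.61 (SE 0.14, adjusted p = 0.0386). The groups did not overlap, and the difference was 0.38 in the IZ and 0.84 in the BZ. Sla encodes the Src-like adaptor, which lowers antigen receptor signalling, and lies inside the thyroglobulin gene Tg, whose window passed as well. The Sla window (chr15:66750819-66881829) had 166, 132 and 95.4 CPM in P1 and 194 to 307 CPM with a median of 252 in P10, a log2 difference of 0.91 (SE 0.20, adjusted p = 0.0323). Both ages had their lowest Sla levels in the RZ, and the groups did not overlap.

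March1 had the largest difference of the named windows that were higher in P10. It encodes a ubiquitin ligase that takes MHC class II and CD86 off the surface of antigen-presenting cells. In P1 its window had 49.5, 50.9 and 41.2 CPM. In P10 it had 61.5 to 129 CPM with a median of 106, a log2 difference of 1.16 (SE 0.29, adjusted p = 0.0495). The RZ library of replicate 3 was the lowest P10 library and still lay above all P1 libraries. March1 is the widest of the named windows at 934 kb and has the lowest GC content in its regions, 39.8%. Its difference was 0.70 with a curve of GC content taken off and 0.77 with all pairs in the window counted, and it passed in neither.

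Transcription factor windows were higher in P10 at Fli1 and Klf13. Fli1, an ETS factor of blood and endothelial cells, had 292, 260 and 247 CPM in P1 and 383 to 443 CPM with a median of 413 in P10 (log2 difference 0.62, SE 0.15, adjusted p = 0.0495), with no overlap. Klf13, a Krüppel-like factor, had 373, 212 and 265 CPM in P1 and 365 to 556 CPM with a median of 418 in P10 (log2 difference 0.60, SE 0.14, adjusted p = 0.0464). Here the groups overlapped, since the P1 IZ library lay above the lowest P10 library. Without the P1 BZ library the Klf13 difference was 0.33 (adjusted p = 0.616).

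The remaining named windows that were higher in P10 were Vps13d, a lipid transfer protein of organelle contacts, Sgms1, a sphingomyelin synthase, and Tnfaip8, a TNF-induced regulator of cell death. Vps13d (chr4:144942622-145245005) had 409, 333 and 364 CPM in P1 and 492 to 685 CPM with a median of 538 in P10, a log2 difference of 0.59 (SE 0.13, adjusted p = 0.0323) that was nearly equal in the zones, at 0.59, 0.62 and 0.56. Tnfaip8 had 303, 287 and 304 CPM in P1 and 331 to 461 CPM with a median of 444 in P10 (log2 difference 0.57, SE 0.14, adjusted p = 0.0495). Both of these had no overlap between the ages. Sgms1 had 480, 329 and 358 CPM in P1 and 475 to 629 CPM with a median of 556 in P10 (log2 difference 0.51, SE 0.13, adjusted p = 0.0495), and its P1 IZ library lay just above the lowest P10 library.

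The windows that were lower in P10 lay in 5 stretches, 4 of them dense with genes. Smad6, which stands alone, had the largest difference of all named windows. It encodes the inhibitory Smad that dampens BMP signalling. Its window (chr9:63923076-64072059) had 81.2, 69.6 and 65.1 CPM in P1 and 22.5 to 33.6 CPM with a median of 26.8 in P10, so that the P1 level was 2.57-fold that of P10 (log2 difference -1.36, SE 0.31, adjusted p = 0.0386). The 3 P1 libraries held 135 pairs there and the 6 P10 libraries 83 pairs, out of more pairs in all.

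The first dense stretch, chr10:80279953-80398412, held 5 overlapping windows, those of Reep6, 2310011J03Rik, Pcsk4, Plk5 and Adamtsl5, with log2 differences of -1.11 to -1.07. Pcsk4, a proprotein convertase known from germ cells, had 113, 160 and 148 CPM in P1 and 43.2 to 106 CPM with a median of 70.0 in P10 (log2 difference -1.11, SE 0.23, adjusted p = 0.027). Since these windows share most of their pairs, they are 1 observation and do not say which of the genes carries the mark. The second stretch, chr10:80537124-80670749, lies close by on the same chromosome and held 6 windows (Klf16, Scamp4, Adat3, Abhd17a, Gm49322 and Csnk1g2). These windows overlap too and are 1 observation in the same way. Csnk1g2, a casein kinase 1, had 352, 292 and 308 CPM in P1 and 185 to 229 CPM with a median of 216 in P10 (log2 difference -0.61, SE 0.15, adjusted p = 0.0495).

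On chromosome 8 the stretch 83905507 to 84060295 held 5 windows. Prkaca, the catalytic alpha subunit of protein kinase A, had 150, 153 and 187 CPM in P1 and 68.1 to 123 CPM with a median of 95.2 in P10 (log2 difference -0.87, SE 0.20, adjusted p = 0.0386). The neighbours in that stretch were Asf1b, a histone chaperone, Samd1, 1700067K01Rik and Palm3. Prkaca, Samd1 and 1700067K01Rik had the same CPM in every library, so the values do not say which of the genes carries the mark. On chromosome 15 the stretch 76638225 to 76747699 held Foxh1, a partner of Smad2 in Nodal signalling, Gpt, an alanine aminotransferase, Mfsd3 and Lrrc14. Its windows overlap as well, and each stretch is 1 observation. Lrrc14 had 133, 180 and 178 CPM in P1 and 69.6 to 128 CPM with a median of 87.7 in P10 (log2 difference -0.94, SE 0.23, adjusted p = 0.0495). In each of Pcsk4, Csnk1g2, Prkaca, Smad6 and Lrrc14 the highest P10 library lay below the lowest P1 library.

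**Figure D1:**
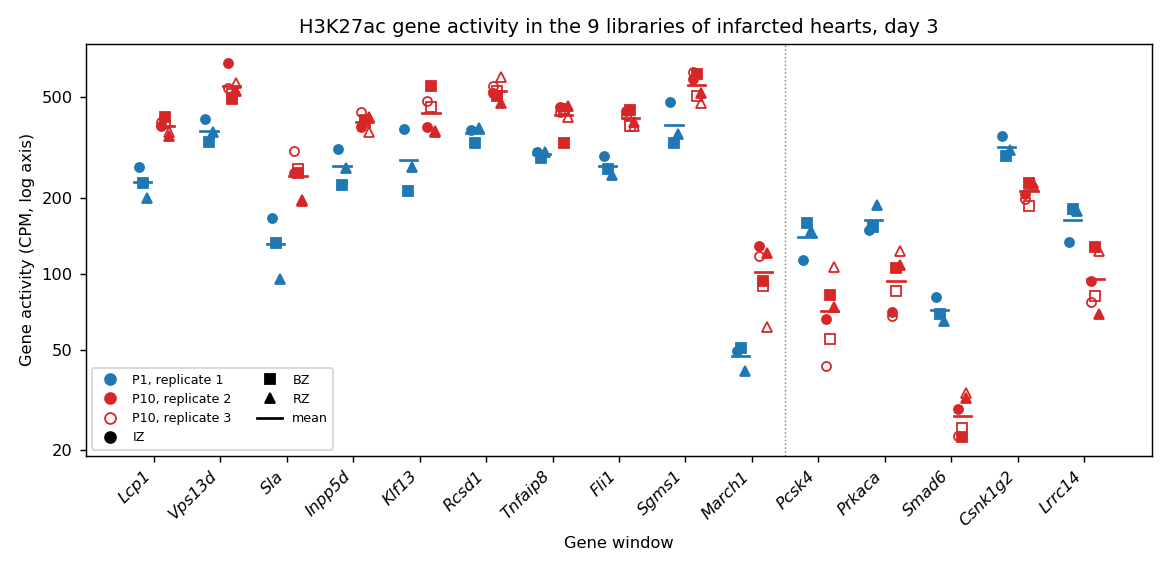
Gene activity (CPM, log axis) of the 15 named windows in each of the 9 libraries; P1 in blue, P10 replicate 2 in filled red and replicate 3 in open red, marker shape gives the zone and the short line the mean of the group. The 10 windows to the left of the dotted line were higher in P10 and the 5 to its right were lower; P1 and P10 points overlap in Klf13 and Sgms1.

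Within single zones, where 2 P10 libraries met 1 P1 library, few differences passed. The border zone gave 2 windows (0.0197% of those tested), Klf13 and its overlapping neighbour E030018B13Rik. Klf13 had 212 CPM in the P1 BZ library against 556 and 456 CPM in the P10 BZ libraries, a log2 difference of 1.16 (SE 0.23, adjusted p = 0.0304 in limma). The P1 BZ arm is 1 library, assumed in the fit to vary like the other groups, and it was the lowest of the P1 libraries for Klf13. In the IZ its levels were 373 CPM in P1 and 380 and 484 CPM in P10, with a log2 difference of 0.19. The infarct zone and the remote zone gave 0 windows each with limma voom, with 734 and 426 windows at an unadjusted p under 0.05. The difference between the IZ and RZ contrasts gave 0 windows too, with 239 at an unadjusted p under 0.05, so no window was shown to differ between the ages in 1 of these zones more than in the other.

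The windows that passed were not spread evenly over base composition. The GC content of the regions in a window was 39.8% to 50.5% with a median of 46.1% in the 13 higher windows, 54.7% to 58.9% with a median of 55.3% in the 21 lower ones, and 50.5% at the median of all tested windows. Divided into 4 groups of equal size by GC content (boundaries 47.8%, 50.5% and 52.8%), all tested windows had median log2 differences of 0.21, 0.05, -0.09 and -0.20 from the lowest to the highest GC content. The lowest group held 10 of the 13 higher windows, and the highest group held 21 of the 21 lower ones. The 13 and 21 windows make up only 11 and 5 separate stretches. When a smooth curve of each library's values against GC content was taken off, an alternative chosen after seeing the data, 0 windows passed in limma (939 at an unadjusted p under 0.05, smallest adjusted p 0.0676). All 34 kept their sign, with medians of 0.48 for the higher and -0.65 for the lower ones, against 0.62 and -0.87 before. Klf13 was at 0.63 against 0.60, Lcp1 at 0.48 against 0.73, Tnfaip8 at 0.34 against 0.57, Sgms1 at 0.27 against 0.51 and Csnk1g2 at -0.39 against -0.61.

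**Figure D2:**
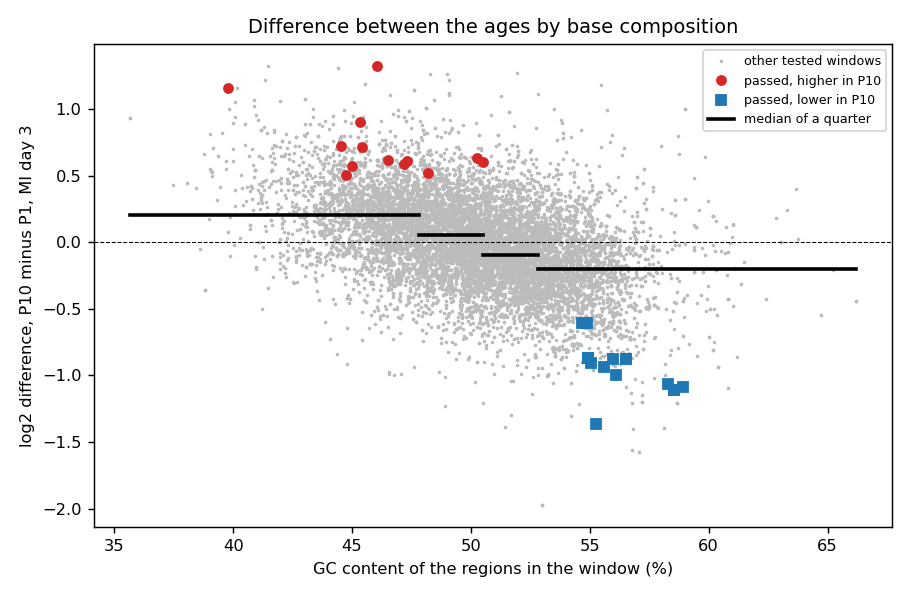
Log2 difference of P10 minus P1 at day 3 after MI for each of the 10159 tested windows, against the GC content of the regions in the window. Black lines are medians of the 4 groups of GC content; the 13 windows that passed as higher in P10 (red) lie at or below 50.5% GC and the 21 that passed as lower (blue) at or above 54.7%.

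The span of the pairs was limited to 1 range in another alternative chosen after seeing the data, without matching spans inside that range. With only pairs of 150 to 250 bp, 3786 windows had enough pairs, 32 of the 34 were among them, and all 32 kept their sign. In this setting 7 windows passed in limma, 6 of them among the 34: Vps13d, which was higher in P10, and the 5 of the Pcsk4 stretch, which were lower. Padi2 was the seventh and was not among the 34. The medians of the windows tested in this setting were 0.66 for the higher and -1.04 for the lower ones, against 0.62 and -0.87 for all 34 with pairs of any span. Pcsk4 was at -1.68 in this setting and Csnk1g2 at -0.32.

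A pair of P10 pools at day 7 showed how these windows varied between pools of 1 age that were sequenced on different flow cells. Replicate 1 of the P10 MI pools at day 7 shared all 4 of its flow cells with the P1 MI pool of day 3, and replicate 2 shared all 5 of its flow cells with P10 MI replicate 2 of day 3. Between these pools of the same age, surgery and day, replicate 2 minus replicate 1 had the sign of the day 3 age difference in 11 of the 13 higher windows and 21 of the 21 lower ones. Of all tested windows, 63.5% had the sign of their own age difference. The medians were 0.19 and -0.19, with -0.02 over all tested windows. The P10 sham pools of day 7, which shared flow cells in the same way, gave that sign in 12 of 13 and 21 of 21, and in 65.3% of all tested windows, with medians of 0.26 and -0.39. Overlapping windows share pairs, and the 21 lower windows make up only 5 stretches and the 13 higher ones 11. Lcp1 and Rcsd1 were the 2 higher windows with the other sign in the MI pools, at -0.06 and -0.03. These pools held different hearts as well. P10 MI replicate 3 of day 3 shared 0 flow cells with them, so they do not stand for its flow cells. Without P10 replicate 2, the day 3 difference was 0.75 for Lcp1, -1.10 for Pcsk4 and 0.89 for March1. In the main fit these values were 0.73, -1.11 and 1.16. The part of the flow cells in the age difference was not tested, since no P1 and P10 pools of MI day 3 shared one.

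**Figure D3:**
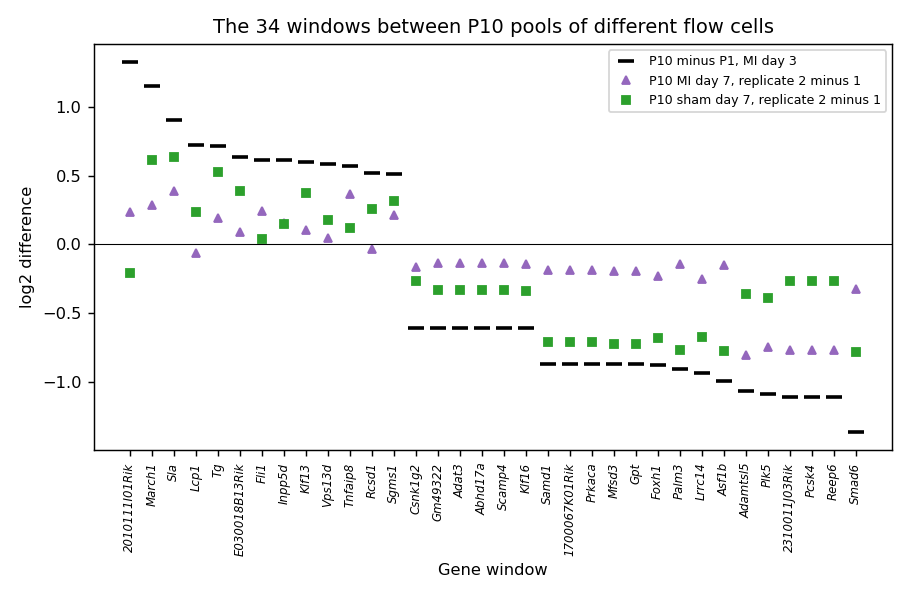
The 34 windows ordered by their log2 difference of P10 minus P1 at day 3 after MI (black bars), with the log2 difference of replicate 2 minus replicate 1 among P10 pools of day 7 after MI (purple triangles) or sham surgery (green squares). The symbols lie on the side of the black bar in all 21 lower windows, nearer to 0 than the bar. These 21 windows make up 5 stretches.

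Sham-operated hearts of the same ages and day gave the age difference without an infarct. Sham surgery was read from the titles of the samples, since the treatment entry of the labels names infarction for every sample. In sham, P10 against P1 gave 0 windows in limma and 1053 at an unadjusted p under 0.05. All 34 windows had the same sign in sham, against 66.2% of all tested windows, with medians of 0.37 for the higher and -0.42 for the lower ones. The 34 windows make up 16 stretches and are not 34 separate agreements. The windows were chosen for their difference after MI, so the smaller size in sham is no comparison of the 2. In the 9 sham libraries Lcp1 had 214 to 282 CPM in P1 and 252 to 350 CPM in P10 (log2 difference 0.29, SE 0.14), and Smad6 had 43.6 to 64.1 CPM in P1 and 17.4 to 43.7 CPM in P10 (log2 difference -0.94, SE 0.32). Tnfaip8 differed by 0.52 in sham and 0.57 after MI. The difference of the age contrasts, MI minus sham, gave 0 windows (304 at an unadjusted p under 0.05) and 0 regions (422), so that no window or region was shown to differ with age more after MI than in sham. The sham pools shared flow cells with the MI pools of their own age, so the 2 contrasts are not separate measurements of age.

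At day 7 after MI, with 12 libraries against 9 at day 3, 655 windows (6.45%) passed between P10 and P1, 310 higher and 345 lower. Of the 34 windows of day 3, 17 had the same sign at day 7 and 1 of them passed there. The medians at day 7 were 0.04 for the 13 higher and 0.02 for the 21 lower windows. Tested directly, the age difference differed between day 3 and day 7 in 267 windows (2.63%), 159 higher and 108 lower at day 3, with 10 of the 34 among them. These 10 included Sla, whose difference was 0.91 at day 3 and -0.01 at day 7 (day 3 minus day 7, 0.92, SE 0.27, adjusted p = 0.044), and Prkaca, at -0.87 and 0.18 (-1.05, SE 0.29, adjusted p = 0.0274). Asf1b, Samd1, 1700067K01Rik and Palm3, whose windows overlap that of Prkaca, were among the 10 too. Klf13 was at 0.60 and -0.19 (0.79, SE 0.19, adjusted p = 0.011). Lcp1, at 0.73 and 0.04, missed the threshold (0.69, SE 0.21, adjusted p = 0.056). The 34 windows were chosen for their day 3 difference, which is also the first term of day 3 minus day 7. Their smaller size at day 7, the 10 among the 267 and these single tests therefore lean towards a difference. They are no separate evidence that the days differ. With pool sums 126 windows passed between the days, 104 higher and 22 lower, and Sla, Prkaca, Klf13, Csnk1g2 and Sgms1 kept their sign without passing (adjusted p 0.0831 to 0.199). The day 7 pools differed in technical ways too. The P1 replicates of day 7 had 32.4% to 39.5% and 53.1% to 63.9% of their pairs in regions, and of the flow cells of the day 7 pools the ages shared 1, in 1 P1 library. Replicate 2 of P1 held only 72874 to 108390 pairs per library at day 7. At day 7 as well, age and flow cell can hardly be told apart. Fli1 and Tnfaip8 were at 0.38 and 0.39 at day 7, against 0.62 and 0.57 at day 3.

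**Figure D4:**
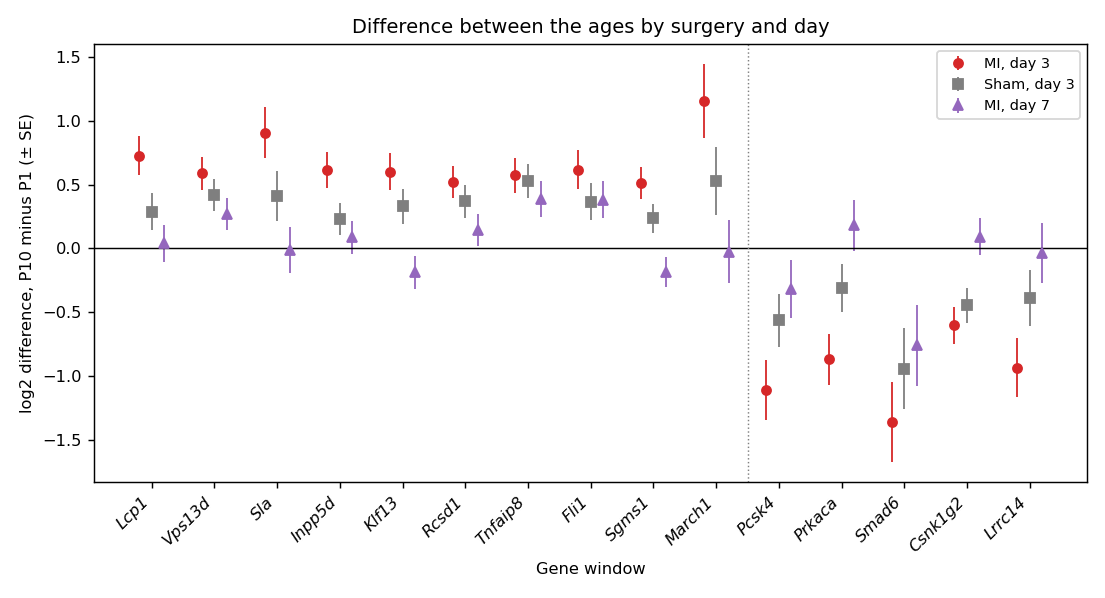
Log2 difference of P10 minus P1 with its standard error for the 15 named windows after MI at day 3 (red circles), after sham surgery at day 3 (grey squares) and after MI at day 7 (purple triangles). The sham values lie between 0 and the MI values of day 3 in all 15 windows, while the day 7 values of 6 of the windows lie on the other side of 0.

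At the level of single regions, 0 of 12490 regions (0.0%) passed in limma, with 941 (7.53%) at an unadjusted p under 0.05, 339 higher and 602 lower in P10. The libraries of the 2 ages did not overlap in 585 regions (4.68%). The smallest adjusted p was 0.146. No tested region inside the named windows passed. In 10 of the 15 windows all tested regions had the sign of the window, and in Vps13d (3 of 10), Klf13 (2 of 3), Rcsd1 (3 of 7), Fli1 (1 of 5) and Sgms1 (1 of 11) some had the other sign. In the Pcsk4 window the 4 tested regions had log2 differences of -2.07 to -1.09. In the Prkaca window there were 5 tested regions, at -1.18 to -0.75, and in the Tnfaip8 window 7, at 0.38 to 0.74. In the Klf13 window 2 of 3 tested regions were negative, at -0.20 and -0.16, and the third was at 0.56.

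The 3 regions with the smallest p in each direction, among those with 1 sign in all zones, are given here. For 4 of them the RefSeq reference sequence (mm10, plus strand) of the most covered bases is shown, so that the letters behind the values can be seen. The only named region with many pairs was an intron region of Lcp1, chr14:75161501-75198000, with 174, 111 and 81 pairs in the P1 IZ, BZ and RZ and 53 to 324 pairs in P10. It is 36500 bp long, against a median of 1500 bp, and is called an intron by its middle. The region held 366 of the 435 P1 pairs and 1026 of the 1169 P10 pairs of the Lcp1 window, so it mostly repeats the window result. Taken over the scaled total of the tested regions instead of the windows, which sets region and window values on different scales, its levels were 681, 566 and 533 CPM in P1 and 814 to 1077 CPM with a median of 991 in P10, without overlap (log2 difference 0.69, SE 0.16, adjusted p = 0.146). In the bases shown, capitals mark 2 overlapping matches to the core of the PU.1 motif (AGGAAGTG or GAGGAAGT), bound by the master ETS factor of myeloid cells.
Lcp1 intron, chr14:75176601-75176814: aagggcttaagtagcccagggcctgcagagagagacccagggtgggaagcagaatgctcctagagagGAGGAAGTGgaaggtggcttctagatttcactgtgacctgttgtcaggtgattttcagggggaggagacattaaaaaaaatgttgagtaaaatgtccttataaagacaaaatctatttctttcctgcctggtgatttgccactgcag

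A region in an intron of Zfp1, a zinc finger gene, at chr8:111657501-111660000, had 3, 0 and 0 pairs in P1 and 4 to 8 pairs in P10. Summed over the libraries this is 3 pairs in P1 and 36 in P10, a ratio per deposited pair of 7.39 (exact 95% interval 2.34 to 37.5, for counting error only). A region outside protein-coding genes at chr19:21126501-21128500, 145 kb from the start site of Zfand5, had 3, 0 and 0 pairs in P1 and 2 to 14 pairs in P10, a ratio of 6.98 (2.2 to 35.5). Both had an adjusted p of 0.146 in limma and rest on few pairs. They were picked from 12490 regions for their small p, which the intervals do not allow for. Under the alternatives their fitted log2 differences, 2.91 and 2.775, ran from 2.52 to 3.66 and from 2.22 to 3.58. The capitals in the Zfp1 sequence mark 1 match to the PU.1 core.
Zfp1 intron, chr8:111659101-111659400: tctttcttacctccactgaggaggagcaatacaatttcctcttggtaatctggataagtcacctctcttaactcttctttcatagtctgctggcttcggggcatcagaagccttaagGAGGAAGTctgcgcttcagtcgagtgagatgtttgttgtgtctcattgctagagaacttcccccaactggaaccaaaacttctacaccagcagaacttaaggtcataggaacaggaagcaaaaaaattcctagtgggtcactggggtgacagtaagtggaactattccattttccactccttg

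In the other direction, the promoter of Plcg1, which encodes phospholipase C gamma 1, had 10, 14 and 6 pairs in P1 and 0 to 4 pairs in P10 (chr2:160730001-160732500). The P1 to P10 ratio per deposited pair was 6.10 (exact 95% interval 2.72 to 15.4). Its fitted log2 difference of P10 minus P1 was -2.44 with all libraries and -1.70 without the P1 BZ library. The promoter of Mx1, an interferon-induced GTPase, had 11, 12 and 7 pairs in P1 and 0 to 7 pairs in P10 (chr16:97461501-97465000), a ratio of 3.25 (1.69 to 6.49). A region over an exon of Tmed9, a cargo receptor of the early secretory pathway, had 11, 13 and 5 pairs in P1 and 0 to 4 pairs in P10 (chr13:55592501-55595000), a ratio of 4.72 (2.23 to 10.8). It is called an exon by its middle. Only the outermost start site of each gene was used to call promoters, so the label does not exclude a promoter inside the gene. None of these passed either, and their intervals do not allow for the choice of the regions by p. Capitals in the Plcg1 sequence mark 1 match to the CEBP motif (TTGCNNAA), and the Mx1 sequence holds no match to any motif searched. The Mx1 stretch is labelled by its region. It lies more than 1000 bp from the start site of Mx1, outside the distance used to call a region a promoter, so it does not describe the promoter itself.
Plcg1 promoter, chr2:160731101-160731299: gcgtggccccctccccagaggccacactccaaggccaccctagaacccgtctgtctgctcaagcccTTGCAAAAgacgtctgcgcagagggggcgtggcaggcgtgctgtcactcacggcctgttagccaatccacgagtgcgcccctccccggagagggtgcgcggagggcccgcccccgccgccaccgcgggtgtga
Mx1 promoter, chr16:97461601-97461900: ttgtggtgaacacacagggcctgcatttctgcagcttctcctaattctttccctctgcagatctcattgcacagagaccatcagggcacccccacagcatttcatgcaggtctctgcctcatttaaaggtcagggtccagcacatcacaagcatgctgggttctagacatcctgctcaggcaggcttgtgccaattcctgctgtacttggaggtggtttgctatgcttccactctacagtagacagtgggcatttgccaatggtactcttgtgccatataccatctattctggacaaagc

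Searched on both strands in stretches of 300 bases around the most covered bin of each of the 27160 regions, the PU.1 core was found in 8.35%, the CEBP motif in 10.5% and the AP-1 motif (TGANTCA) in 9.62%. No AP-1 match was found in the stretches of the 6 regions (the stretch of the Zfand5 region holds 1 CEBP match). A match describes letters and not binding, and a missing match says only that these letters are not in the stretch.

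Groups of genes with known roles in these cells were read from 21 lists of 234 genes, 162 of which were tested. The lists were drawn up with earlier results of these data known. None of their genes passed between P10 and P1 at day 3 in limma, and 19 had an unadjusted p under 0.05, 11 higher and 8 lower. This is 11.7% of the listed genes tested, against 11.8% of all windows. Since 0.335% of all windows passed at day 3 and 6.45% at day 7, 0 of 162 at day 3 is close to the share over all windows. The smallest adjusted p was that of Cdk6, a cell cycle kinase, named after its values were seen: 217, 204 and 239 CPM in P1 and 285 to 368 CPM in P10, without overlap (log2 difference 0.62, SE 0.16, adjusted p = 0.0504). The medians below are to be read against -0.01, the median over all tested windows.

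The 12 markers of the sorted cells had a median log2 difference of 0.25, and 9 of 12 were positive. Ptprc, which encodes CD45, had 187, 141 and 148 CPM in P1 and 188 to 327 CPM in P10 (log2 difference 0.61, SE 0.21, adjusted p = 0.182), and Csf1r, the CSF1 receptor, had 268, 261 and 328 CPM in P1 and 180 to 313 CPM in P10 (-0.11, SE 0.16, adjusted p = 0.858). The regions of the Ptprc window have 40.0% GC, and its difference was 0.17 with the GC curve taken off. For the whole list that median was 0.11.

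Resident macrophage genes had a median of 0.25 over 11 tested members at day 3, and 0 passed. Lyve1, a hyaluronan receptor of resident macrophages, had 66.0, 66.2 and 97.6 CPM in P1 and 63.9 to 156 CPM in P10 (log2 difference 0.50, SE 0.26, adjusted p = 0.452). C1qa, a subunit of the complement starter C1q, had 68.5, 102 and 148 CPM in P1 and 43.2 to 224 CPM in P10 (0.25, SE 0.28, adjusted p = 0.796). Both ages overlapped in these genes. At day 7 the same list had a median of 1.09 and 8 of its 11 tested members were called higher in P10, against 310 of all 10159 windows, Lyve1 at 0.78 and C1qa at 1.42. With the GC curve taken off, the median at day 3 was 0.04. For no gene of this list did the age difference pass as different between the days.

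No monocyte gene passed between the ages at day 3. The classical monocyte list had a median of 0.06 over 6 tested members. F10, coagulation factor X, had 93.9, 49.2 and 45.5 CPM in P1 and 28.0 to 143 CPM in P10 (log2 difference 0.08, SE 0.34), and Plac8 had 135, 96.7 and 78.1 CPM in P1 and 61.5 to 177 CPM in P10 (0.05, SE 0.26). At day 7 their differences were -2.61 and -1.42, both passing, and the list median was -1.29. The direct test between the days passed for F10 (2.69, SE 0.50, adjusted p = 0.00139), Plac8 (1.47, SE 0.35, adjusted p = 0.00964) and Hp, which encodes haptoglobin (2.15, SE 0.46, adjusted p = 0.0033). Hp was at 0.51 at day 3 and -1.64 at day 7. These 3 and the 4 other listed genes that passed between the days (Treml4, Trem2, Plaur and Slc2a1) also passed with pool sums, with adjusted p-values of 0.0105 to 0.0388.

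The Ly6c-low monocyte list had a median of -0.13 over 8 tested members. Ace, which encodes angiotensin-converting enzyme, had 13.96, 25.5 and 23.9 CPM in P1 and 0 to 16.1 CPM with a median of 4.99 in P10 (log2 difference -1.97, SE 0.68, adjusted p = 0.200), at few pairs and with overlap. Nr4a1, the nuclear receptor that these monocytes need, had 352, 255 and 256 CPM in P1 and 157 to 338 CPM in P10 (-0.24, SE 0.17, adjusted p = 0.618). Treml4 was at 0.48 at day 3 and -1.71 at day 7, a difference that passed between the days (2.197, SE 0.43, adjusted p = 0.00145).

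The Arg1 macrophage list had a median of 0.05 over 8 tested members. Arg1, the arginine-degrading enzyme of repair macrophages, had 29.2, 23.8 and 10.8 CPM in P1 and 15.0 to 36.3 CPM in P10 (log2 difference 0.31, SE 0.42, adjusted p = 0.835). Trem2, a lipid-sensing receptor, had 88.8, 66.2 and 67.2 CPM in P1 and 58.9 to 191 CPM in P10 (0.41, SE 0.29, adjusted p = 0.624). Trem2 was at -1.44 at day 7, where it passed, and its age difference passed between the days (1.85, SE 0.43, adjusted p = 0.00701).

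The S100a9 Ly6c monocyte list, genes of inflammatory monocytes and neutrophils, had a median of 0.19 over 6 tested members. S100a9 and S100a8 themselves, named after their values were seen, had too few pairs in regions. With all pairs in the window counted, and CPM taken over the total of that count, S100a9 had 32.0, 19 and 12.4 CPM in P1 and 3.63 to 172 CPM with a median of 52.8 in P10, and S100a8 had 46.6, 23.7 and 12.4 CPM in P1 and 7.27 to 186 CPM with a median of 65.1 in P10. The log2 differences were 1.45 (SE 0.62, adjusted p = 0.602) and 1.499 (SE 0.60, adjusted p = 0.572). These genes are neighbours with overlapping windows, and many pairs count for both. Their similar differences therefore do not back each other up, and both genes enter the list median. The spread within P10 was wide: the IZ library of replicate 3 was the highest in both genes and the RZ library of replicate 3 the lowest, and the list median over 12 members was 0.54 on this scale.

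Antigen presentation was the list with the most negative median, -0.49, and 5 of 5 members were negative at day 3. H2-Aa, an MHC class II chain, had 17.8, 13.6 and 23.9 CPM in P1 and 6.81 to 16.0 CPM in P10 (log2 difference -0.49, SE 0.50, adjusted p = 0.763), and H2-Eb1 had 19.03, 18.7 and 32.5 CPM in P1 and 11.2 to 22.4 CPM in P10 (-0.52, SE 0.51, adjusted p = 0.7503). The summed level of the list was 242 to 282 CPM in P1 and 135 to 229 CPM in P10, without overlap. No single member passed, several of these genes are neighbours that share pairs, and with all pairs counted the list median was -0.11 and the sums overlapped. With the GC curve taken off it was -0.52. At day 7 the median was 0.70, and no member passed there or between the days.

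Genes of the response to low oxygen and glycolysis had a median of 0.26, and 9 of 10 were positive. With the GC curve taken off, the median was 0.12 and 8 of 10 were positive. Hif1a, the oxygen-sensing factor, had 31.7, 32.2 and 26.0 CPM in P1 and 33.6 to 54.0 CPM in P10 (log2 difference 0.50, SE 0.36, adjusted p = 0.631), and Slc2a1, the glucose transporter GLUT1, had 121, 109 and 58.6 CPM in P1 and 73.6 to 223 CPM in P10 (0.41, SE 0.23, adjusted p = 0.513). Slc2a1 was at -1.07 at day 7, where it passed, and its difference passed between the days (1.47, SE 0.33, adjusted p = 0.00477).

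Cytokine and chemokine genes had a median of 0.14 over 12 tested members. Cxcl2, a chemokine that draws neutrophils, had 35.5, 50.9 and 56.4 CPM in P1 and 61.5 to 86.4 CPM in P10, without overlap (log2 difference 0.63, SE 0.30, adjusted p = 0.388), and Cxcl1, its neighbour with shared pairs, differed by 0.67 (SE 0.31, adjusted p = 0.372). With the GC curve taken off the list median was -0.08. Interferon response genes had a median of -0.22 over 9 tested members, and 7 of 9 were negative. Isg15, a ubiquitin-like protein made in response to interferon, had 85.0, 96.7 and 86.8 CPM in P1 and 40.9 to 71.4 CPM in P10, without overlap (-0.59, SE 0.24, adjusted p = 0.281), while Irf7 differed by -0.29 (SE 0.34, adjusted p = 0.798). In sham the interferon list had a median of -0.28.

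In the lists of repair and regulation 0 genes passed at day 3. Wound repair and growth factor genes were at -0.08 over 10 tested members, where Tgfb1, a driver of fibrosis, had 334, 407 and 364 CPM in P1 and 304 to 393 CPM in P10 (log2 difference -0.03, SE 0.12). Plaur, the urokinase receptor, had an age difference that passed between the days (1.48, SE 0.34, adjusted p = 0.00595), at 0.45 on day 3 and -1.03 on day 7. The efferocytosis and lipid handling list was at 0.03 over 12, with Mertk, a receptor for dying cells, at 0.25 (SE 0.21) and Axl, its relative, at -0.59 (SE 0.19, adjusted p = 0.165). Transcription factors were at 0.03 over 23, with Cebpb at 0.07 (SE 0.12) and Cebpa at -0.23 (SE 0.21). Cell cycle genes were at 0.02 over 10, with Mki67, the proliferation marker, at 0.47 (SE 0.29) and Top2a at -0.32 (SE 0.22). With all pairs counted, the summed level of the cell cycle list was 933 to 949 CPM in P1 and 1030 to 1140 CPM in P10, without overlap. In regions the sums of the cell cycle list overlapped, at 1030 to 1150 CPM in P1 and 1070 to 1410 CPM in P10. Of the fetal and neonatal list 3 of 10 genes were tested, at a median of -0.28, with Igf2bp3 at 0.00 (SE 0.22), Hmga1 at -0.28 (SE 0.22) and Arid3a, a regulator of blood cell development, at -0.33 (SE 0.11, adjusted p = 0.182) and without overlap.

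**Figure D5:**
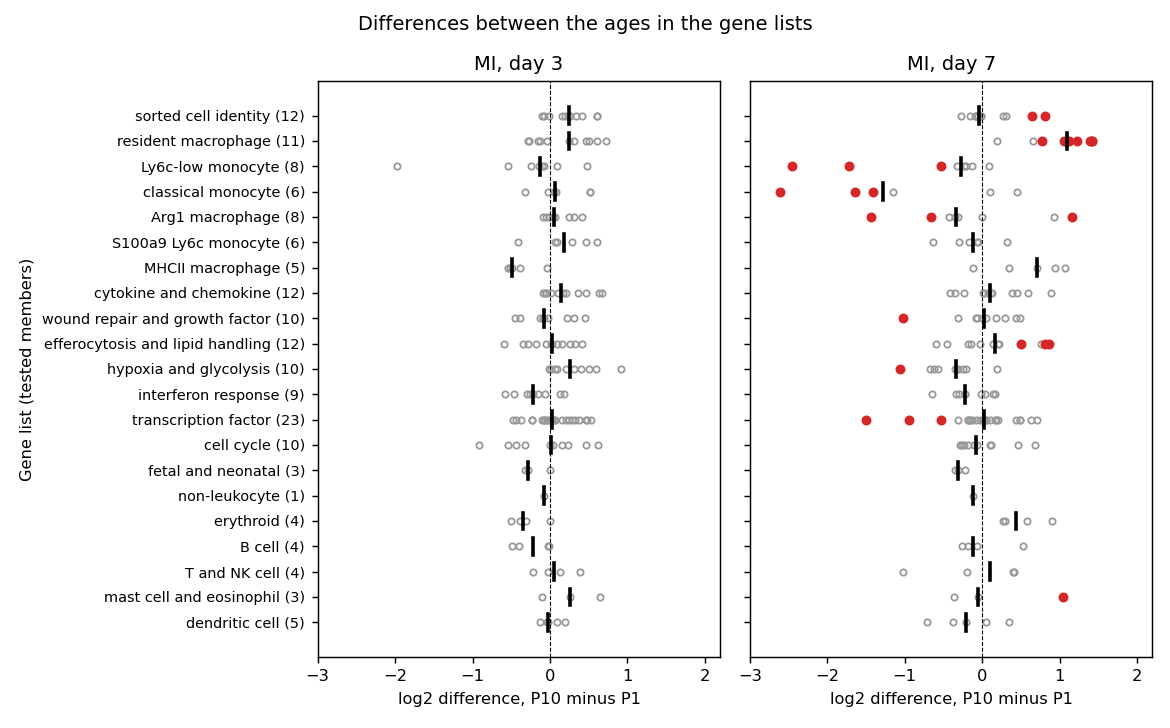
Log2 difference of P10 minus P1 for the tested members of the 21 gene lists at day 3 (left) and day 7 (right) after MI; grey circles did not pass, red points passed at an adjusted p under 0.05, and black bars are list medians. No member passed at day 3, while 27 of 162 listed genes passed at day 7, of which Mertk is on 2 lists. Of all 10159 windows 34 (0.335%) passed at day 3, with 9 libraries, and 655 (6.45%) at day 7, with 12 libraries.

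Markers of other cell types that the sort could have carried along gave 0 calls. Over all pairs, the summed level of the 12 non-leukocyte genes tested that way was 470 to 523 CPM in P1 and 403 to 545 CPM in P10. In regions, the summed levels were 195 to 231 CPM in P1 and 109 to 241 CPM in P10 for erythroid genes, 178 to 191 and 143 to 218 CPM for B cell genes, 213 to 256 and 222 to 282 CPM for T and NK cell genes, 97.7 to 132 and 90.2 to 172 CPM for mast cell and eosinophil genes, and 279 to 314 and 224 to 366 CPM for dendritic cell genes. These ranges in regions overlapped between the ages in each of these lists. With all pairs counted, the summed level of mast cell and eosinophil genes was 199 to 220 CPM in P1 and 228 to 267 CPM in P10, without overlap, and its part in the results was not tested. In regions the median log2 differences were -0.35, -0.21, 0.06, 0.26 and -0.02 in that order. The dendritic cell median changed sign with libraries scaled to all deposited pairs (0.01). With the GC curve taken off, the medians of the mast cell and eosinophil (-0.07), Arg1 macrophage (-0.04) and efferocytosis (-0.07) lists were negative and that of the dendritic cell list was 0.04. Siglecf, an eosinophil lectin, had 45.7, 33.9 and 47.7 CPM in P1 and 48.8 to 84.0 CPM in P10, just without overlap (log2 difference 0.65, SE 0.30, adjusted p = 0.368).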

How the data were processed

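H3K27ac CoBATCH libraries of sorted CD45+F4/80+ cells were read from aligned reads, 1 file per library and 1 read per line. According to the methods and the submitters' processing notes, the authors trimmed reads with Cutadapt, aligned them to mm10 with Bowtie2, filtered with Samtools, removed duplicates with Picard and kept cells above a read minimum. The deposited score of each read is its mapping quality, which ran from 21 to 44 and was not used as a measurement. No cell barcode accompanies a read.

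Unique read pairs were counted by name, and repeated lines (15.6% to 19.1% in P10 replicate 2) were dropped. Regions were 500 bp bins with at least 4 times the mean of covered bins over all libraries, merged within 1000 bp (27160 regions, median 1500 bp). Windows covered 21938 protein-coding genes. Windows averaging 10 or more pairs a library, and regions averaging 3 or more, were fitted with limma 3.58.1 voom in R 4.3.3 (statmod 1.5.0, TMM scaling, two-sided moderated test, Benjamini-Hochberg) on all 42 libraries with 24 group means of age, surgery, day and zone. Pool was a random block of 14 pools with a correlation of 0.107 for windows and 0.0565 for regions, and the age contrast was the mean of the 3 zone contrasts. Tables and exact intervals were made in Python 3.11.15 with scipy 1.17.1, pandas 2.3.3 and numpy 2.4.6, and figures with matplotlib 3.10.9. The fits were also run on simulated counts with known differences. These counts held no age difference in flow cell, GC content or pair span, so they do not test for false calls from those. The 6 other labelled samples were not analysed here.

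Named windows were the up to 10 per direction with the smallest adjusted p and 1 sign in all zones, without overlapping ones and genes known only by a Gm or Rik name. Named regions were the 3 per direction with the smallest p and 1 sign in all zones, and list genes the first tested members in list order or those that passed. The comparison and the lists were chosen with earlier results of these data known. Sequences were cut to leave out annotated UTRs. Reads carry no molecular identifiers, so intervals cover counting error only. Those of the named regions do not allow for the choice of the regions by p. Alternatives covered scaling, model, filters, block, libraries, pair definition, GC content and pair span, the last 2 chosen after seeing the data.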

Additional observations from a re-analysis of the deposited data

Results flagged for a closer look

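Of 48 groups of 6 P10 values checked for 1 library far from the others, 3 had one, and chance gives about 1 in 20. Tnfaip8 was lowest in the BZ library of replicate 2, at 330.6 CPM. The median span of the pairs was lowest in the RZ library of replicate 2, at 238 bp. The share of pairs on Y was highest in the RZ library of replicate 3, at 0.0365% (50 of 137158 pairs, Wilson 95% interval 0.0277% to 0.0481%), against 0.0035% to 0.0125% in the other P10 libraries and 0.0146% to 0.0175% in P1.

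The age difference (P10 minus P1, log2) differed between day 3 and day 7 after MI in 267 windows and 71 regions by a direct test in limma. Day 3 minus day 7 was 0.918 for Sla, -1.05 for Prkaca, 0.791 for Klf13, -0.697 for Csnk1g2 and 0.696 for Sgms1. These windows were chosen for their day 3 difference, which enters the value. Those of Sla, Prkaca, Klf13 and Csnk1g2 overlap other windows that passed at day 3. Among listed genes, day 3 minus day 7 was 2.197 for Treml4, 1.465 for Plac8, 2.685 for F10, 2.148 for Hp, 1.854 for Trem2, 1.48 for Plaur and 1.473 for Slc2a1. These 7 listed genes differed more at day 7 than at day 3, where none of them passed.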

How the results depend on the processing

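The number of windows that passed, 34, changed with most choices, while no named window changed sign. The medians of the higher and lower windows were 0.62 and -0.87 in the main fit. They were 0.58 and -0.82 with pool sums and 0.645 and -0.837 with libraries scaled to all deposited pairs. With all pairs in the window they were 0.70 and -0.64, and with the GC curve taken off 0.48 and -0.65. Of 358 values of the named windows under alternatives, 115 kept the call, 243 lost it and 0 reversed. No window passed with libraries scaled to all deposited pairs (140 at an unadjusted p under 0.05), with limma-trend (578), with pool sums (895), with all pairs in the window (1197) or with the GC curve taken off (939). Without a low-count filter 21 passed, with a stricter filter 12, with names of exactly 2 distinct lines 52, with pairs of 150 to 250 bp 7, without the pool block 121 and with the 9 libraries alone 295. Median-of-ratios scaling gave 38, and leaving out X and Y 35. Leaving out 1 library gave 0 to 49 windows: 0 without any P1 library or P10 BZ replicate 3, 5 and 49 without P10 IZ replicates 3 and 2, 7 without P10 BZ replicate 2, and 3 and 6 without P10 RZ replicates 2 and 3. Without a P1 library the contrast covers 2 zones. Without the P10 pool of replicate 2 there were 2 windows and without that of replicate 3 there was 1. For regions, 54 passed with the 9 libraries alone, 0 to 2 when a library or pool was left out (2 without the pool of replicate 3) and 0 otherwise. The day 3 minus day 7 windows went from 267 (159 higher, 108 lower) to 126 (104 higher, 22 lower) with pool sums and 395 (203 higher, 192 lower) with the GC curve taken off, and the regions from 71 (43 and 28) to 61 (51 and 10) and 88 (67 and 21). MI minus sham stayed at 0. The cause of these changes was not tested. No paired analysis was possible, since the P1 and P10 hearts came from different mice. Replicate numbers, 1 for the P1 pool and 2 and 3 for the P10 pools, do not match them either. Of the 6 named regions, 5 rest on 0 to 14 pairs per library.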
